A study of Mus musculus with 24 samples.

Results

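Sorted glioma cells were compared with the surrounding cells of the same brains at the late symptomatic stage of mouse gliomas driven by PDGFB. The comparison takes in 8 of the 24 libraries of the series, chosen by the column labels: 4 glioma libraries with the marks GFP or RED and the suffix tD, and 4 surrounding libraries with the mark NEG and the same suffix. The tumours, 3054A, 3054B, 3054C and 3057E, were collected 120, 175, 175 and 100 days after transduction, and all 4 animals are labelled symptomatic. Each tumour gave 1 glioma and 1 surrounding library. PDGFB had been transferred into the ventricles of the embryonic telencephalon, and the tumour cells carried a fluorescent protein, labelled GFP in 3054A, 3054B and 3054C and RED in 3057E. Tumours were microdissected under fluorescence, dissociated and sorted. The surrounding cells were defined by the absence of fluorescence in the same dissected tissue, so they are a mixture of cell types, can hold tumour cells that lost the marker, and come from brains that had received PDGFB too. No library of a brain without a tumour enters the comparison. Strain, sex and age at transduction are not given in the sources used here, and the code of a tumour, its day and the mark of its cells cannot be told apart.

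PDGF-B is a growth factor that binds the receptors Pdgfra and Pdgfrb. Pdgfra is the receptor of oligodendrocyte precursor cells (OPC), the dividing glial progenitors of the brain, and gliomas driven by PDGF commonly resemble these precursors. The tissue around a glioma holds resident microglia, macrophages derived from blood monocytes, lymphocytes, vessel cells and the brain's own glia. Microglia and macrophages are kept alive by the receptor Csf1r, and cells that present antigen to T cells use MHC class II molecules, whose genes are switched on by the coactivator Ciita.

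The gene groups below have promoters in which short motifs have long been described, and the promoters of 2 members of each of 4 groups are shown to make those motifs visible. Each is a stretch of 100 bases within the window from 250 bases before to 50 after the annotated start, from the RefSeq table for GRCm38.p6, written 5′ to 3′ on the strand of the gene, with the motif in capitals. Ckap2l and Ttk, genes of the mitotic spindle that were higher in glioma cells, hold the letters TTTGAAA or their reverse complement TTTCAAA, the cell cycle homology region. Itgam and P2ry13, microglial genes that were lower, hold GAGGAAG or CTTCCTC, the core of the PU.1 motif. H2-DMb2 and H2-Eb1, genes of MHC class II presentation that were lower, hold ATTGG or CCAAT, the core of the Y box. Gbp2 and Oas3, interferon-induced genes that were lower, hold TTTC, any 2 bases and TTTC, or the reverse complement of this pattern, the interferon-stimulated response element.
Ckap2l, chr2:129297191-129297290, minus strand: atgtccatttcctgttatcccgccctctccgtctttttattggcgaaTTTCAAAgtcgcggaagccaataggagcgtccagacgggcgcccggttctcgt
Ttk, chr9:83834639-83834738, plus strand: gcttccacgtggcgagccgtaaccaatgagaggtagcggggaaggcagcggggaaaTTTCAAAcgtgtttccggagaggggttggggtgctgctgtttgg
Itgam, chr7:128062590-128062689, plus strand: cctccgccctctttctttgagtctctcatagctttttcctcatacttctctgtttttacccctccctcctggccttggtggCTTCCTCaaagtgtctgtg
P2ry13, chr3:59210878-59210977, minus strand: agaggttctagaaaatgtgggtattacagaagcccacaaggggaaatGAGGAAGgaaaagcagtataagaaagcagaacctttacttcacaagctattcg
H2-DMb2, chr17:34145111-34145210, plus strand: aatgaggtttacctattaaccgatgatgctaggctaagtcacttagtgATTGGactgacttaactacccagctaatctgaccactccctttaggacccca
H2-Eb1, chr17:34305784-34305883, plus strand: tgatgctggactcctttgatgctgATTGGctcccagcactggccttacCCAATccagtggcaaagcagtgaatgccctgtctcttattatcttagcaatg
Gbp2, chr3:142620559-142620658, plus strand: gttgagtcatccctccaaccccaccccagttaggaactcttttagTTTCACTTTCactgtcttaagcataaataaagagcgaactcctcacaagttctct
Oas3, chr5:120777680-120777779, minus strand: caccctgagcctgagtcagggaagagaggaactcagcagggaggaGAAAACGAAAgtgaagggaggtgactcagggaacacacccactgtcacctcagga

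Both strands were searched in windows of 300 bases. The cell cycle homology region stood in 8 of the 22 mitosis promoters in the table (36.4%), against 6.55% of all 27025 promoters. The PU.1 core stood in 5 of 13 homeostatic microglia promoters (38.5%), against 13.5% of all. The Y box core, a short motif that many promoters hold, stood in 7 of 9 MHC class II promoters (77.8%), against 37.9% of all. The interferon-stimulated response element stood in 13 of 23 interferon response promoters (56.5%), against 3.49% of all. These matches describe letters in the reference, and binding of a factor was not measured.

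The 8 libraries held from 9.08e+06 to 1.55e+07 expected counts, and mitochondrial genes took 6.91% to 11.7% of the counts in glioma and 7.70% to 19.98% in surrounding libraries. Levels are given as CPM, counts scaled to the size of the library, in the order 3054A, 3054B, 3054C and 3057E. Differences are log2 of glioma over surrounding with their standard error, and adjusted p values are those of edgeR's quasi-likelihood test over all genes tested, with values under 0.05 called. Tumour 3057E stood apart from the other 3 in both populations. Summed over 19 markers of homeostatic microglia, the surrounding libraries held 17269, 21115, 25710.0 and 2627 CPM, and the glioma libraries held 158, 183, 187 and 3034 CPM. In 3057E the glioma library was therefore no lower than its surrounding library, whereas in the other tumours it held 0.912%, 0.868% and 0.729% of the surrounding sum. The sum of the 20 OPC markers was 17415, 21738, 16295 and 21249 CPM in glioma and 5795, 3718, 1033 and 16509 CPM in surrounding libraries, so the surrounding cells of 3057E were close to the glioma cells in these genes. Within the pair of 3057E, 16.3% of the genes tested differed by more than 2-fold, against 41.3% to 42.9% in the other pairs. The cause was not tested, and counts of each gene list are given with all 4 tumours and then without 3057E where they differ.

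**Figure D1:**
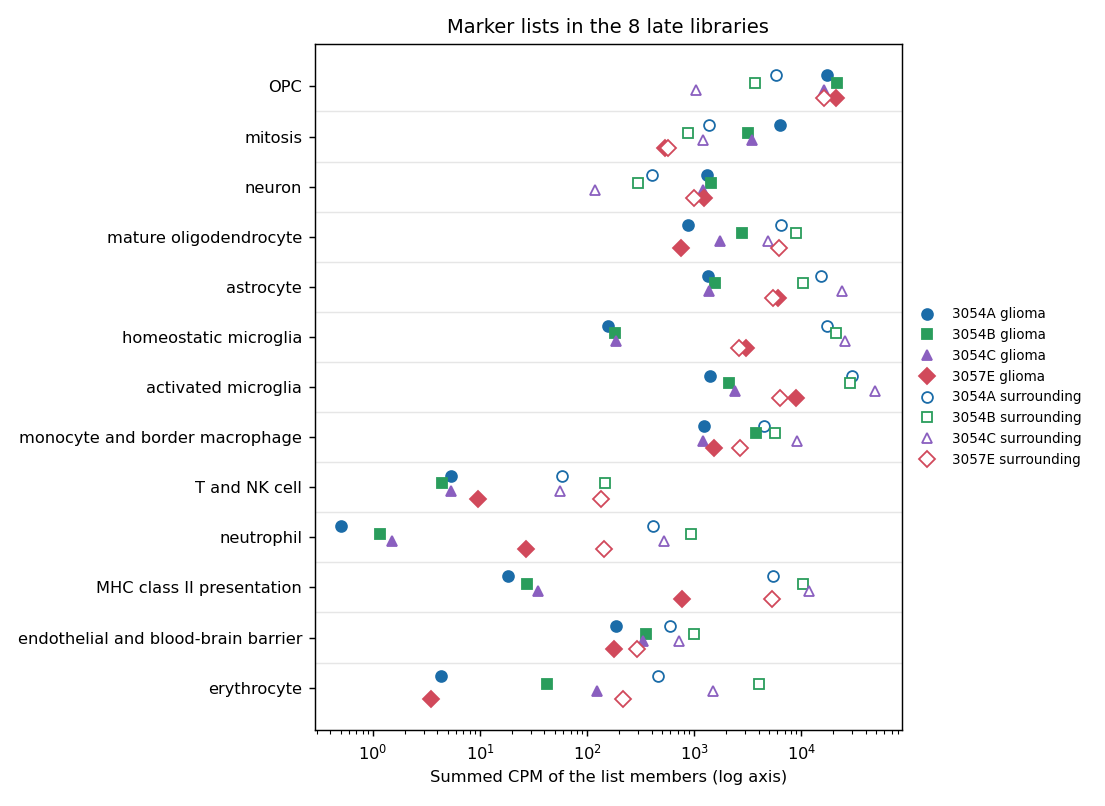
Summed CPM of the marker lists (log axis) in each of the 8 late libraries, with filled symbols for glioma, open symbols for surrounding cells and 1 symbol shape per tumour. For homeostatic microglia the glioma library of 3057E, at 3034 CPM, lies beside its surrounding library, while the other glioma libraries lie between 158 and 187 CPM.

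Among 18810 genes tested with all 4 tumours, 6638 (35.3%) differed between late glioma and late surrounding cells. Of these, 2899 (15.4% of the genes tested) were higher in glioma cells and 3739 (19.9%) were lower. The lower genes differed by more: their median log2 difference was -2.86, against 1.15 for the higher genes, and 1200 of them were more than 16-fold lower whereas 15 were more than 16-fold higher. A difference of more than 2-fold was found in 1732 higher (9.21%) and 3235 lower genes (17.2%), and the 4 glioma values did not overlap the 4 surrounding values in 1733 higher (9.21%) and 2833 lower genes (15.1%). Without 3057E, 8232 of 19254 genes (42.8%) were called, 3748 higher (19.5%) and 4484 lower (23.3%). Of the genes called with all tumours, 2745 higher and 3633 lower genes were called in the same direction without 3057E (94.7% and 97.2%, or 73.2% and 81.0% of the calls without it), and none was called in the opposite direction. Within the pair of 3057E itself, 75.5% of 3741 genes called higher without it were higher and 76.1% of 4383 called lower were lower, against 48.8% and 50.5% of all genes. Calls fell to 4318 of 19220 genes without 3054A (1447 higher and 2871 lower). Without 3054B they were 4221 of 19307 (1378 and 2843), and without 3054C 4479 of 19247 (1636 and 2843). With 3057E left out as well, 7002 of 19864 genes were called without 3054A (3233 and 3769). The counts without 3054B and 3054C were then 6298 of 19949 (2789 and 3509) and 6342 of 19869 (2814 and 3528). List counts below are to be read against the shares of all genes in the same fit. Results without 3054A, 3054B or 3054C keep 3057E unless stated. A fit of the 8 late libraries alone called 612 higher and 2356 lower genes, and with the tumour as a block 95 and 920. Without 3057E the late libraries alone gave 2764 and 3820, and with the block 3305 and 4075.

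**Figure D2:**
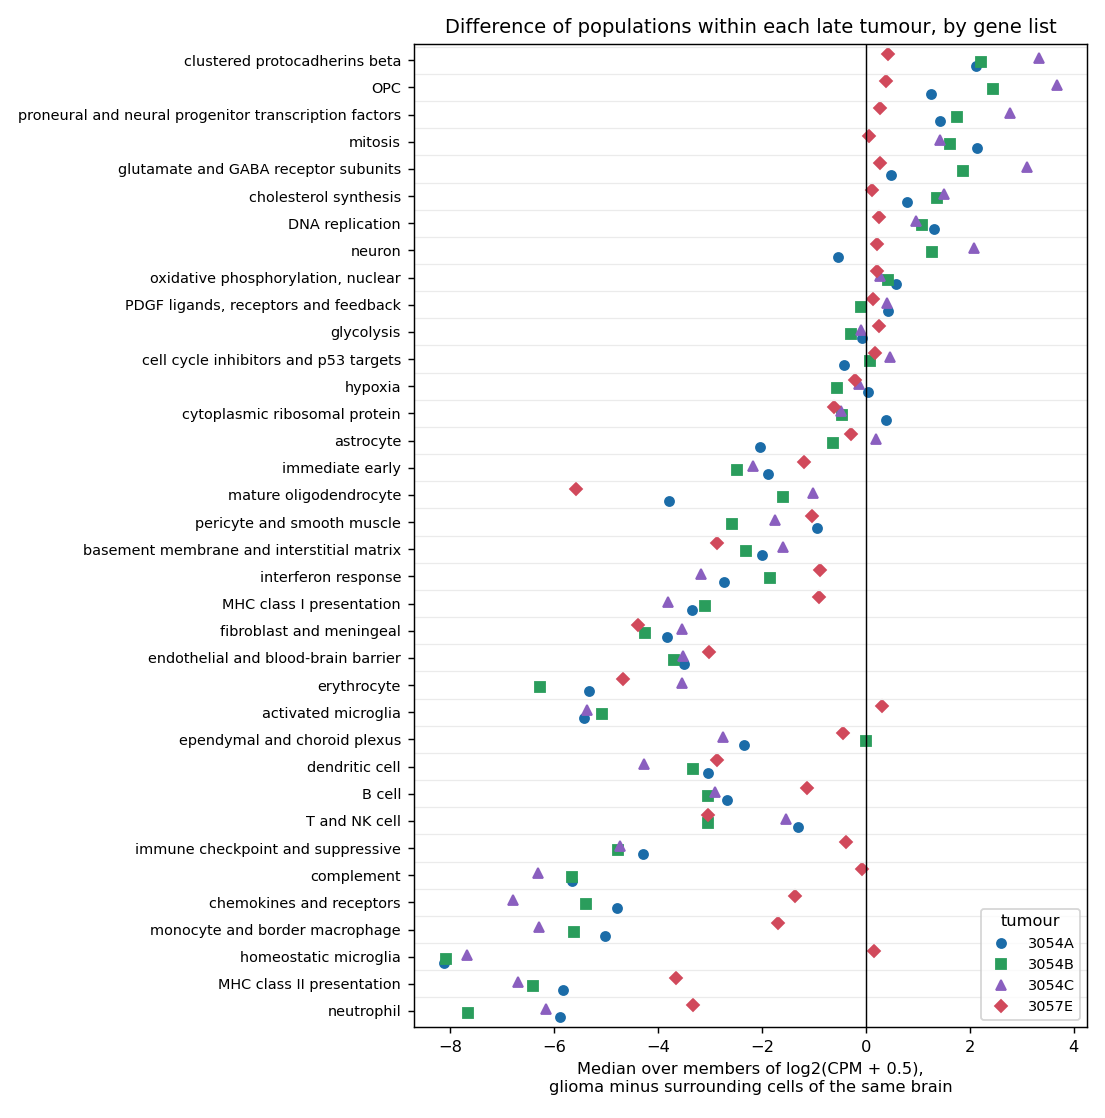
Median over the members of each gene list of log2(CPM + 0.5) in glioma minus surrounding cells of the same brain, with 1 symbol per tumour. In the lists of microglial genes 3057E lies near 0 while the other 3 tumours lie far to the left.

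Genes of the OPC were higher in the glioma cells. With all tumours 13 of the 20 OPC genes were called higher and 0 lower, with a median log2 difference of 1.49 against 0.04 over all genes tested, and without 3057E 17 were higher, with a median of 2.19 against -0.06. With 3057E kept, the count was 7 without 3054A, 2 without 3054B and 6 without 3054C. With 3057E left out as well it was 18, 15 and 15. Pdgfra, the receptor of PDGF-A and PDGF-B, stood at 3182, 3275, 2687 and 3234 CPM in glioma and 814, 576, 136 and 2751 CPM in surrounding cells. Its glioma values span a narrow range, and the surrounding value of 3057E overlaps them while that of 3054C is the lowest. The difference was 1.53 ± 0.53 (adjusted p = 0.028) with all tumours and 2.51 ± 0.46 (1.8e-04) without 3057E, and adjusted p = 0.12, 0.14 and 0.059 without 3054A, 3054B and 3054C. Sox10, a transcription factor of the oligodendrocyte lineage, stood at 499, 767, 707 and 453 CPM in glioma and 170.3, 131, 64.8 and 385 CPM in surrounding cells. Its groups did not overlap, and the difference of 1.69 ± 0.37 (adjusted p = 0.0014) was 2.35 ± 0.32 without 3057E. Olig2, which specifies this lineage, stood at 482, 424, 487 and 509 CPM and 133, 72.6, 29.9 and 373 CPM. The glioma values of Olig2 were close to each other, and the difference was 1.64 ± 0.47 (adjusted p = 0.0091), or 2.49 ± 0.39 without 3057E, and adjusted p = 0.051 without 3054B. Vcan, which encodes a matrix proteoglycan, was 1.73 ± 0.53, adjusted p = 0.015, and adjusted p = 0.19 without 3054B, and its 3054B glioma library, at 3606 CPM, was far above the other 3. Gpr17, a marker of precursors committed to become oligodendrocytes, was not called (1.14 ± 0.74, adjusted p = 0.25).

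Transcription factors of neural progenitors and of proneural tumours were higher as a group. With all tumours 16 of the 26 were called higher and 1 lower (median 1.26), and without 3057E 21 were higher and 1 lower (median 1.83). Sox11, which acts in immature neurons and progenitors, stood at 215, 134, 182 and 67.9 CPM in glioma and 23.5, 28.3, 10.3 and 42.3 CPM in surrounding cells. All 4 glioma values were above all surrounding values, and the difference was 2.52 ± 0.46 (adjusted p = 2.9e-04), or 3.02 ± 0.48 without 3057E. Sox2, a factor of neural stem cells, stood at 137, 94.99, 183 and 86.8 CPM and 24.6, 24.2, 15.9 and 67.9 CPM, again without overlap, and differed by 1.92 ± 0.34 (adjusted p = 2.3e-04). Sox4, of the same family as Sox11, differed by 1.72 ± 0.31 (adjusted p = 2.6e-04), although in 3057E its glioma value of 76.6 CPM was below the surrounding value of 84.9 CPM. Zeb1 differed by 1.58 ± 0.32 and Nfia, a factor of gliogenesis, by 1.23 ± 0.28 (adjusted p = 6.4e-04 and 0.0016). Id1, an inhibitor of proneural factors, was the lower gene, at 1.01, 1.43, 0.758 and 0 CPM in glioma and 3.48, 9.16, 8.62 and 0.371 CPM in surrounding cells (-2.74 ± 0.77, adjusted p = 0.0085, and adjusted p = 0.062 without 3054C). Its level was low throughout, and Id2, Id3 and Id4 were not called, at -0.71, -0.44 and -0.68.

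Ligands, receptors and feedback genes of the PDGF pathway went in both directions, with 6 of 20 called higher and 6 lower, against 15.4% and 19.9% of all genes. Without 3057E 8 were higher and 6 lower, against 19.5% and 23.3%. Among the ligands, Pdgfb stood at 54.1, 59.7, 27.2 and 44.7 CPM in glioma and 44.004, 59.5, 80.1 and 12.8 CPM in surrounding cells and was not called (-0.08 ± 0.42, adjusted p = 0.90). The sources used here do not state whether reads of the introduced PDGFB copy were counted for this gene. Pdgfa was not called either, at -0.29, and Pdgfd, a ligand of Pdgfrb, was lower at -2.85 ± 1.01, adjusted p = 0.031, and adjusted p = 0.15, 0.084 and 0.064 without 3054A, 3054B and 3054C. Of the receptors, Pdgfra rose with the values above, and Pdgfrb, the receptor of vessel wall cells, stood at 0.591, 0.358, 0.152 and 0.0828 CPM in glioma and 32.7, 121, 34.3 and 33.3 CPM in surrounding cells. That is a difference of -7.51 ± 1.04 (adjusted p = 2.4e-05) with no overlap. The feedback inhibitors of receptor signalling divided. Spry2 was higher (1.65 ± 0.39, adjusted p = 0.0024), as was Spred2 (0.97 ± 0.22, adjusted p = 0.0020), both without overlap. The phosphatase Dusp6 was lower (-0.87 ± 0.21, adjusted p = 0.0031), with the glioma value of 3057E, 143 CPM, above its surrounding value of 135 CPM. Dusp5 and Errfi1, which damp ERK and EGFR signalling, were lower in every pair (-2.51 ± 0.39, adjusted p = 6.8e-05 and -2.18 ± 0.48, adjusted p = 0.0015). Without 3054A and 3054B the count of higher members was 3 each, against 6. With 3057E left out as well it was 7 each, against 8.

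Mitotic genes were higher in the glioma cells of 3 tumours and not in those of 3057E. With all tumours 21 of the 26 were called higher and 0 lower (median 1.64), and without 3057E 23 were (median 1.68). The sums were 6352, 3181, 3496 and 531 CPM in glioma and 1368, 885, 1202 and 569.9 CPM in surrounding libraries, so the glioma library of 3057E was at the level of surrounding cells, and no member had groups without overlap. Cenpf, a kinetochore protein, stood at 592, 309, 246 and 36.99 CPM in glioma and 76.1, 52.4, 37.8 and 52.3 CPM in surrounding cells. It differed by 2.44 ± 0.51 (adjusted p = 8.7e-04), or 2.71 ± 0.40 without 3057E. Ckap2l and Prc1, proteins of the spindle, differed by 2.14 ± 0.41 and 2.19 ± 0.44 (adjusted p = 4.6e-04 and 6.6e-04). Ccnb1, the cyclin of mitotic entry, differed by 2.17 ± 0.46 (adjusted p = 0.0010). Mki67, the usual marker of dividing cells, stood at 1762, 867, 665 and 85.9 CPM and 444, 244, 295 and 138 CPM. Its difference was 1.59 ± 0.57, adjusted p = 0.035, and adjusted p = 0.14, 0.12 and 0.078 without 3054A, 3054B and 3054C, and 0.050 with the tumour as a block. Calls in this list fell to 7 without 3054A, the tumour with the highest sum, and to 11 without 3054B. With 3057E left out as well they were 16 and 21.

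DNA replication genes showed a smaller difference, with 10 of 26 called higher and 0 lower (median 1.01), and the same counts without 3057E (median 1.09). With the tumour as a block 18 were called higher, against 22.8% of all genes in that fit, and leaving out 3054A, 3054B or 3054C gave 6, 5 and 5. Leaving out 3057E as well gave 5, 5 and 6. Rfc3, a subunit of the clamp loader, stood at 24.8, 20.4, 28.9 and 23.3 CPM in glioma and 9.35, 9.27, 14.1 and 15.1 CPM in surrounding cells. It was higher in all 4 glioma libraries without overlap (1.02 ± 0.25, adjusted p = 0.0029), and Rrm1, of ribonucleotide reductase, was 1.31 ± 0.32, adjusted p = 0.0032. Pcna and Cdt1 were not called, at 0.34 ± 0.39, adjusted p = 0.53 and 0.16 ± 0.48, adjusted p = 0.82.

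Cell cycle inhibitors and p53 targets had 5 of 20 members higher and 4 lower, against 15.4% and 19.9% of all genes, and 6 in each direction without 3057E, against 19.5% and 23.3%, so the shares were near those of all genes. Cdkn2a, which encodes the inhibitor p16 and the p53 activator p19Arf, stood at 83.5, 132, 141 and 17.4 CPM in glioma and 9.47, 23.2, 14.1 and 13.5 CPM in surrounding cells. The glioma values of 3054A, 3054B and 3054C lay well above every surrounding value and that of 3057E did not. The difference was 2.63 ± 0.50, adjusted p = 4.1e-04, or 2.84 ± 0.45 without 3057E. Cdkn1a, the inhibitor p21 and a target of p53, went the other way, at 20.3, 63.3, 26.8 and 38.2 CPM and 129, 261, 172 and 44.9 CPM (-2.03 ± 0.62, adjusted p = 0.014, and adjusted p = 0.065 and 0.079 without 3054A and 3054C). Mdm2, the p53 antagonist and target, was lower by a small amount (-0.51 ± 0.15, adjusted p = 0.012, and adjusted p = 0.081 and 0.064 without 3054B and 3054C). Perp, a p53 target of cell adhesion, had 3 counts or fewer over the 4 glioma libraries and was 39.2-fold lower (95% interval 13.1 to 193) on pooled counts. Without single tumours the counts of this list ran from 1 to 2 higher and from 1 to 2 lower for 3054A, 3054B and 3054C. With 3057E left out as well they were 4, 5 and 2 higher and 6, 4 and 5 lower.

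Cholesterol synthesis had 8 of 20 members higher and 1 lower (median 0.89), and 10 and 1 without 3057E (median 1.12). Sqle, squalene epoxidase, stood at 132, 188, 145 and 112 CPM in glioma and 28.9, 43.4, 13.8 and 86.2 CPM in surrounding cells. The groups did not overlap and the difference was 1.74 ± 0.47, adjusted p = 0.0069. The late step enzyme Ebp was the lower member (-0.97 ± 0.25, adjusted p = 0.0051, and adjusted p = 0.050 without 3054B). The number of higher members was 2, 1 and 1 without 3054A, 3054B and 3054C, 16 with the tumour as a block, and 4 with no filter on low counts. It was 9, 8 and 3 without each of these tumours and 3057E.

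Protocadherins of the beta cluster, cell surface adhesion proteins that give neurons an identity, were called higher in 17 of 21 cases and lower in 0 with all tumours (median 1.90), and higher in 19 without 3057E (median 2.58). Pcdhb5 stood at 102, 107, 108 and 33.02 CPM in glioma and 3.48, 17.5, 5.52 and 13.3 CPM in surrounding cells. Every glioma value was above every surrounding value, and the difference of 3.14 ± 0.41, adjusted p = 1.6e-05 was among the 12 highest by fold of the genes with no overlap. Pcdhb10 was 2.57 ± 0.43, adjusted p = 1.3e-04 and Pcdhb2 2.37 ± 0.55, adjusted p = 0.0021. Pcdhb22, at 0.22 ± 0.24, adjusted p = 0.51, was not called. The members are similar in sequence, and expected counts divide shared reads by estimate. Without 3054A 10 members were called and without 3054B 11, or 20 and 16 with 3057E left out as well.

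Subunits of glutamate and GABA receptors were called higher in 4 of 23 cases and lower in 1 with all tumours, where 15.4% of all genes were higher and 19.9% lower. Without 3057E 13 were higher and 2 lower, against 19.5% and 23.3% of all genes. In this list the glioma library of 3057E was the highest, with a sum of 2319, 1977, 1808 and 3524 CPM in glioma and 908, 469.6, 155 and 2918 CPM in surrounding libraries. Grik3, a kainate receptor subunit, stood at 204, 259, 198 and 149 CPM in glioma and 53.5, 51.3, 10.9 and 125 CPM in surrounding cells (1.75 ± 0.46, adjusted p = 0.0051). Gabrg1, a GABA-A receptor subunit, was 1.87 ± 0.51, adjusted p = 0.0067, and both were without overlap. Gabra3 was 1.57 ± 0.53, adjusted p = 0.025, and adjusted p = 0.098 and 0.10 without 3054A and 3054B. Without 3054B 2 subunits were called higher, or 10 with 3057E left out as well. With the tumour as a block there were 14, against 22.8% of all genes in that fit. Grm3, a metabotropic receptor, was the lower one, at 0.253, 0.447, 0.152 and 0.910 CPM and 9.35, 4.18, 1.98 and 14.4 CPM (-4.06 ± 0.79, adjusted p = 5.0e-04). Of 15 neuron markers tested 4 were higher and 0 lower (6 and 0 without 3057E), against the shares of all genes given above. When 3054A, 3054B or 3054C was left out 2 were higher, and 6, 5 and 4 with 3057E left out as well. Within pairs 6 markers were higher and 9 lower in 3054A, and 9 and 6 in 3054B (medians -0.55 and 1.28). The counts were 15 and 0 in 3054C and 11 and 4 in 3057E (medians 2.08 and 0.22). Nefm, a neurofilament subunit, was 1.90 ± 0.43, adjusted p = 0.0017, and Map2 was 1.69 ± 0.47, adjusted p = 0.0080, and adjusted p = 0.051 and 0.064 without 3054A and 3054B. The defining markers Rbfox3 and Slc17a7 of mature and excitatory neurons were not called, at -0.23 and -0.23.

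Mature oligodendrocyte genes were lower in 9 of 16 cases and higher in 0 (median -2.73), and 8 lower and 1 higher without 3057E. Ermn, a protein of the myelin sheath, stood at 0.845, 5.37, 2.80 and 0.579 CPM in glioma and 121, 108, 66.4 and 168 CPM in surrounding cells, and 3057E did not differ from the other tumours here (-5.59 ± 0.80, adjusted p = 3.4e-05). Mog, a myelin surface protein, was -4.10 ± 0.93, adjusted p = 0.0018, and Trf, transferrin, was -3.79 ± 0.55, adjusted p = 3.7e-05. Mbp, a major myelin protein, did not pass the test, at -1.94 ± 0.87, adjusted p = 0.089. Astrocyte genes were lower in 7 of 16 cases and higher in 1, and 7 and 3 without 3057E. Gja1, the gap junction protein connexin 43, stood at 0.845, 1.25, 1.74 and 0.414 CPM and 34.8, 49.96, 23.2 and 38.3 CPM (-5.08 ± 0.66, adjusted p = 1.3e-05), with no overlap. Gfap, the intermediate filament of astrocytes, was not called, at 16.1, 57.8, 56.6 and 9.68 CPM and 116, 99.5, 46.3 and 12.9 CPM (-0.97 ± 0.77, adjusted p = 0.35). Apoe, made by astrocytes and macrophages, stood at 93.02, 163, 197 and 3409.7 CPM in glioma and 14039, 9636, 23484 and 3091 CPM in surrounding cells (-3.70 ± 0.94, adjusted p = 0.0043), and in 3057E the glioma library was the higher. The 1 higher member, Sox9, was 1.20 ± 0.45, adjusted p = 0.040, and adjusted p = 0.19, 0.088 and 0.14 without 3054A, 3054B and 3054C. Without 3054A 3 astrocyte genes were lower, and without 3054B 4, or 2 and 6 with 3057E left out as well.

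Genes of the ependyma and choroid plexus, the lining of the ventricles and the tissue that makes cerebrospinal fluid, were lower in 10 of 12 cases (median -5.39), and in 8 without 3057E. Members with 3 counts or fewer over the glioma group were also set at the fold of their pooled counts, with a floor of 3 counts where there was none, and the median was then -4.94. The tumours differed in this list, with surrounding sums of 350, 16.5, 1908 and 18.3 CPM. All 12 members were lower within the pairs of 3054A and 3054C (medians -2.34 and -2.74). Within 3054B 5 were higher and 4 lower (median 0), and within 3057E 4 and 7 (median -0.44). Ttr, the transthyretin of the choroid plexus, stood at 285, 4.97, 1760.5 and 0.149 CPM in surrounding cells and 0.0845, 0.447, 1.06 and 0.331 CPM in glioma cells (-10.00 ± 3.07, adjusted p = 0.015, and adjusted p = 0.058 and 0.088 without 3054A and 3054C). Aqp1, the water channel of the choroid plexus, was present in all 4 surrounding libraries at 26.5, 8.14, 10.4 and 9.51 CPM and near 0 in glioma cells (-7.20 ± 1.84, adjusted p = 0.0044). Without 3054A 2 members were called and without 3054C 1, limma voom with sample weights called 2, and the fits with no filter and with a stricter filter called 6 and 5. Without 3057E as well as 3054A or 3054C the counts were 2 and 0.

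All 19 genes of homeostatic microglia that were tested were called lower in glioma cells, in the fit with all tumours (median -4.28) and without 3057E (median -8.46). Within the pair of 3057E itself 11 of the 19 were higher in glioma cells and 8 lower (median 0.15). In this list 3057E sets the size of the difference. Csf1r, the receptor on which microglia depend, stood at 3.04, 5.10, 5.76 and 261 CPM in glioma and 2295, 2882, 2574 and 365 CPM in surrounding cells. The 3 other glioma values were below 6 CPM, and the difference was -4.88 ± 1.07 (adjusted p = 0.0013) with all tumours and -9.20 ± 0.50 (1.2e-10) without 3057E. Tmem119, a marker of resident microglia, stood at 2.11, 0.984, 3.56 and 29.2 CPM and 388, 397, 475 and 34.01 CPM (-5.17 ± 0.87, adjusted p = 1.4e-04, and -7.63 ± 0.56 without 3057E). Cx3cr1, the fractalkine receptor, stood at 3.04, 3.67, 6.67 and 275 CPM and 1325, 1405, 1741 and 277 CPM, nearly equal in the pair of 3057E (-4.04 ± 1.06, adjusted p = 0.0054, and -8.46 ± 0.62 without 3057E). P2ry12, a purine receptor of microglial processes, was -4.34 ± 0.96, adjusted p = 0.0015, and -8.00 ± 0.56 without 3057E. Ptprc, the surface protein CD45 of all white blood cells, stood at 0.422, 0.626, 1.67 and 69.4 CPM in glioma and 464, 489, 576 and 341 CPM in surrounding cells (-4.69 ± 1.03, adjusted p = 0.0014, and -9.18 ± 0.59 without 3057E). In sorted bulk samples, fewer cells of a type and less RNA per cell cannot be told apart, here and for each cell type below.

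Genes of activated microglia were lower in 14 of 21 cases (median -2.62), and in 19 without 3057E (median -5.59). In the pair of 3057E 16 of the 21 were higher in glioma cells and 5 lower (median 0.30). The list sum of 3057E was 8921 CPM in glioma and 6365 CPM in surrounding cells. Lgals3, galectin 3, stood at 1.94, 3.22, 3.49 and 11.999 CPM in glioma and 112, 241, 392 and 42.6 CPM in surrounding cells (-5.25 ± 0.90, adjusted p = 1.6e-04), without overlap in any tumour. Cst7 and Clec7a, both of the activated state, were not called with all tumours (-2.47 ± 1.1, adjusted p = 0.086 and -2.38 ± 1.11, adjusted p = 0.10). They were -8.34 ± 0.78 and -7.42 ± 0.90 without 3057E (adjusted p = 4.5e-08 and 1.4e-06). Cst7 stood at 0.169, 0.447, 0.303 and 53.7 CPM in glioma and 61.5, 109, 117 and 14.9 CPM in surrounding cells, and in 3057E the glioma library held more of it than the surrounding library. Cd9 and Fabp5, which OPC-like cells also express, were called in neither fit, at 0.45 and 0.61 with all tumours.

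Genes of blood monocytes and border macrophages were lower in 16 of 20 cases and higher in 1, Vcan, which is also an OPC marker (median -4.49, and -8.31 without 3057E, or -7.57 with members of few counts at their pooled fold, where 17 were lower). In the pair of 3057E 13 of the 20 were lower and 7 higher (median -1.70). Of the 17 called lower without 3057E, 12 were lower in its pair and 5 higher. Ccr2, the chemokine receptor of inflammatory monocytes, stood at 0.169, 0, 0.227 and 1.32 CPM in glioma and 153, 228, 426 and 243 CPM in surrounding cells. The surrounding value of 3057E lay within the range of the others, and the difference was -9.21 ± 0.89, adjusted p = 1.4e-06, or -10.91 ± 1.0 without 3057E. Plac8 and Ly6c2, of the same cells, were 2228-fold lower (95% interval 616 to 18406) and 1056-fold lower (95% interval 189 to 41759) on pooled counts, intervals that cover counting error only. Chil3, a chitinase-like protein of monocytes, stood at 181, 709, 618 and 53.99 CPM in surrounding and below 1 CPM in all glioma libraries (-10.36 ± 1.42, adjusted p = 2.3e-05). The border macrophage receptor Cd163 was not called (0.76 ± 0.40, adjusted p = 0.15).

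T and NK cell genes were lower in 17 of the 18 members tested, with and without 3057E (median -6.32 and -6.15). With members of few counts at their pooled fold the medians were -5.21 and -4.47. No count of Cd8a, Cd8b1, Cd3g or Cd3e, chains of the CD8 coreceptor and of the T cell receptor complex, was found in any of the 4 glioma libraries. In surrounding cells Cd8a stood at 1.56, 5.31, 2.41 and 11.4 CPM and Cd3e at 1.44, 6.44, 1.29 and 6.76 CPM, highest for Cd8a in 3057E. Set against a floor of 3 counts over the group, Cd8a was at least 91.8-fold lower and Cd8b1 at least 56.01-fold lower in glioma cells. Foxp3, the factor of regulatory T cells, was not called (-1.34 ± 0.63, adjusted p = 0.10). Of 10 B cell genes 4 were tested and 3 were lower. Cd79b, of the B cell receptor, stood at 0, 0, 0 and 1.41 CPM in glioma and 7.19, 9.04, 12.1 and 1.63 CPM in surrounding cells (-4.37 ± 1.01, adjusted p = 0.0021).

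Dendritic cell genes were lower in 13 of 14 cases, with the actin bundler Fscn1, which tumour cells also use, higher at 0.95 ± 0.21, adjusted p = 0.0014. Flt3, the growth factor receptor of dendritic cells, stood at 0, 0.447, 0.227 and 0 CPM in glioma and 20.5, 56.9, 36.8 and 41.9 CPM in surrounding cells, with 3057E among the others (-7.78 ± 0.82, adjusted p = 2.4e-06). Ccr7, which guides mature dendritic cells to lymph nodes, was -8.98 ± 0.97, adjusted p = 5.4e-06. All 8 neutrophil genes tested were lower (median -9.24, and -10.06 without 3057E, or -8.80 and -8.96 with members of few counts at their pooled fold). S100a9, a calcium-binding alarmin of neutrophils, had 67.02, 131, 81.5 and 18.6 CPM in surrounding cells and was 1666-fold lower (95% interval 461 to 13767). Cxcr2, the chemokine receptor of neutrophils, had no count in glioma cells and 35.1, 53.9, 28.2 and 4.01 CPM in surrounding cells, at least 439-fold lower, with 3057E the lowest surrounding library. Ly6g, Camp, Ltf and Elane were not tested because of low counts. Beyond the lists, P2ry10, a lipid receptor of lymphocytes, was among the genes with the largest fold of those without overlap and was at least 472-fold lower.

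MHC class II presentation was lower in all 11 members tested, in every tumour and with no overlap (median -5.86, and -9.04 without 3057E, or -9.01 with members of few counts at their pooled fold). H2-Ab1, a chain of the class II molecule, stood at 5.24, 9.21, 10.2 and 16.96 CPM in glioma and 323, 816, 1106 and 885 CPM in surrounding cells. The difference was -6.23 ± 0.64, adjusted p = 2.4e-06, and -6.59 ± 0.74 without 3057E. Ciita, the coactivator, stood at 0.507, 0.805, 0.531 and 0.497 CPM and 29.3, 33.2, 47.9 and 67.95 CPM, highest in the surrounding cells of 3057E (-6.23 ± 0.67, adjusted p = 2.8e-06). H2-Eb1 and H2-DMb2, whose promoters are shown above, were -7.50 ± 0.93, adjusted p = 8.4e-06 and -5.86 ± 0.68, adjusted p = 5.0e-06. MHC class I genes, which nearly all cells can express, were lower in 20 of 20 (median -2.84, and -3.69 without 3057E). H2-K1, a classical class I heavy chain, stood at 14.3, 29.1, 24.9 and 106 CPM and 511, 819, 905 and 184 CPM (-3.80 ± 0.57, adjusted p = 4.7e-05). Tap1, the peptide transporter, was -3.00 ± 0.40, adjusted p = 1.9e-05, and Psme1, a proteasome activator, was -2.11 ± 0.28, adjusted p = 1.8e-05. Classical class I heavy chains such as H2-K1 and H2-D1 are close in sequence, and the division of reads between them is uncertain.

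Complement genes were lower in 16 of the 20 tested (median -4.47, and 17 with a median of -6.66 without 3057E). In the pair of 3057E 11 were lower and 9 higher (median -0.08). C3, the central component, stood at 0.507, 1.25, 1.82 and 13.7 CPM in glioma and 90.3, 105, 159.5 and 35.9 CPM in surrounding cells (-4.50 ± 0.76, adjusted p = 1.4e-04). C4b, another component, was not called (-0.50 ± 0.43, adjusted p = 0.39). Chemokines and their receptors were lower in 21 of 24 cases and higher in 2. Ccl5 and Cxcl2, ligands for T cells and neutrophils, were -6.02 ± 0.88, adjusted p = 4.1e-05 and -8.09 ± 1.08, adjusted p = 1.8e-05. Cx3cl1, the ligand of the microglial receptor Cx3cr1, was the opposite of its receptor, at 30.5, 60.9, 52.5 and 75.6 CPM in glioma and 26.4, 18.9, 8.02 and 47.98 CPM in surrounding cells (1.11 ± 0.35, adjusted p = 0.016, and adjusted p = 0.10 and 0.058 without 3054B and 3054C).

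Immune checkpoint and suppressive genes were lower in 12 of the 16 tested and higher in 2, and 12 and 3 without 3057E. Cd276, the ligand B7-H3, stood at 141, 199, 126 and 104 CPM in glioma and 35.9, 57.8, 17.9 and 84.96 CPM in surrounding cells (1.54 ± 0.36, adjusted p = 0.0022). Nt5e, the ecto-enzyme CD73 that makes adenosine, stood at 255, 441, 269 and 150.4 CPM and 56.7, 97.6, 42.8 and 110.0 CPM (1.86 ± 0.45, adjusted p = 0.0032). Both were without overlap. Entpd1, CD39, the enzyme before CD73, was lower (-1.75 ± 0.33, adjusted p = 4.0e-04), with the glioma value of 3057E above its surrounding value. Cd274, the ligand PD-L1, stood at 0.929, 0.984, 1.52 and 6.87 CPM and 42.6, 109.5, 71.9 and 14.04 CPM (-4.52 ± 0.70, adjusted p = 6.8e-05), and Havcr2, TIM-3, was -5.39 ± 0.88, adjusted p = 1.1e-04. Ctla4, Tigit, Ido1, Il10 and Pdcd1lg2 were not tested because of low counts.

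Interferon response genes were lower in 26 of 30 cases and higher in 0 (median -2.29, and 28 with a median of -2.81 without 3057E). Isg20, an antiviral nuclease, stood at 0.169, 0.626, 0.379 and 0.993 CPM in glioma and 10.4, 23.4, 19.7 and 6.91 CPM in surrounding cells (-4.78 ± 0.60, adjusted p = 8.9e-06). Oas3, a sensor of double-stranded RNA whose promoter is shown above, stood at 0.169, 0, 0 and 2.98 CPM and 27.7, 46.5, 63.01 and 18.7 CPM (-5.61 ± 0.99, adjusted p = 2.1e-04). Irf1, an interferon regulatory factor, differed by less (-1.83 ± 0.29, adjusted p = 7.3e-05). Beside this list, the marker sums of homeostatic microglia ran from 158 to 3034 CPM in glioma and from 2627 to 25710 CPM in surrounding libraries. Their part in the antigen presentation, complement, chemokine and interferon results was not tested.

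**Figure D3:**
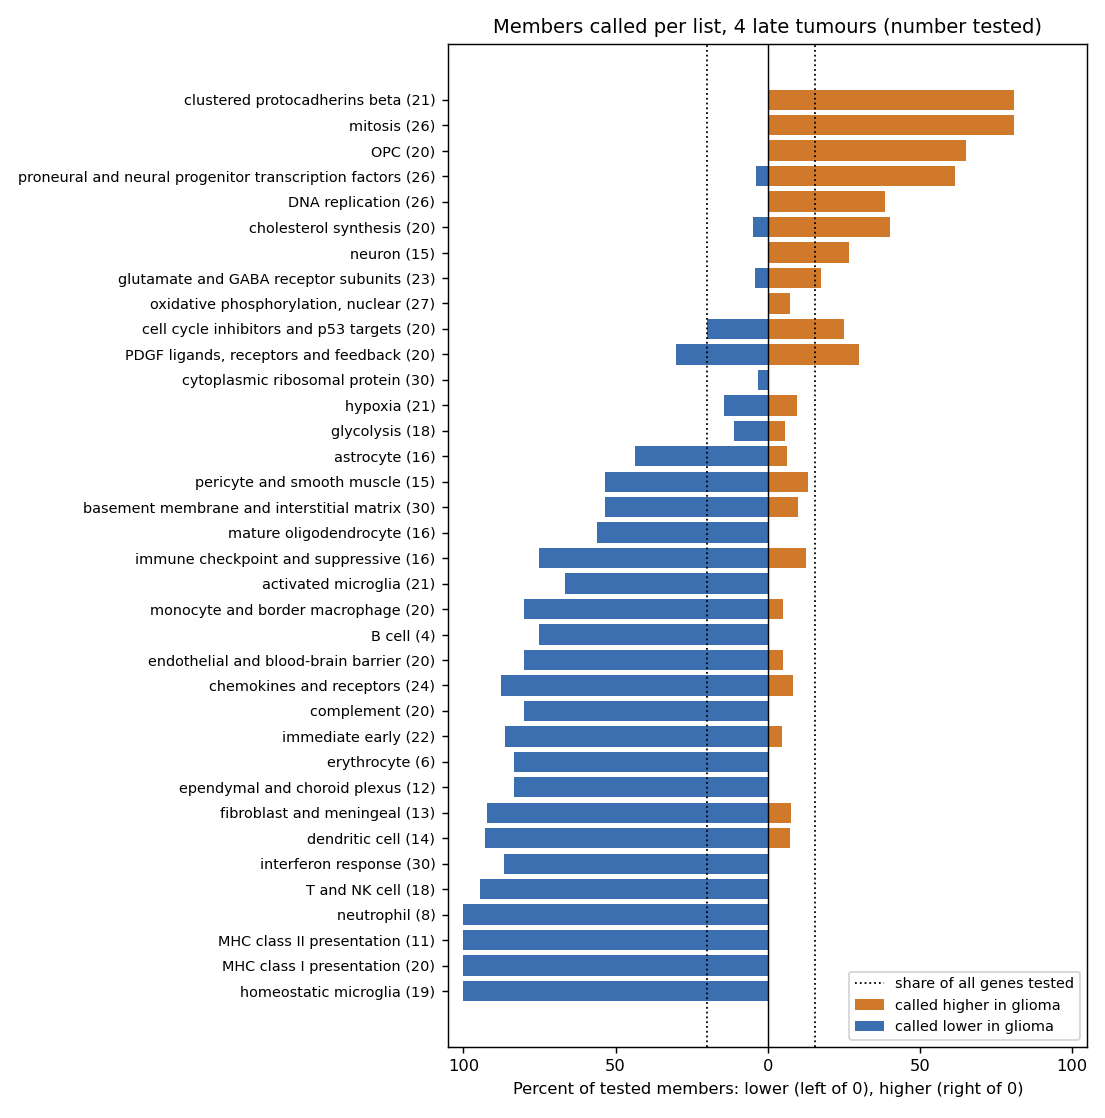
Percent of the tested members of each gene list called higher (right) or lower (left) in late glioma cells with all 4 tumours (edgeR, adjusted p under 0.05), with dotted lines at the shares over all genes tested, 15.4% and 19.9%. The bars of the immune lists lie on the lower side and those of the OPC, progenitor, mitosis and protocadherin lists on the higher side.

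Endothelial and blood-brain barrier genes were lower in 16 of 20 cases and higher in 1, with the same counts without 3057E. Pecam1, an adhesion protein between endothelial cells, stood at 0.169, 1.34, 2.35 and 0.910 CPM in glioma and 42.3, 44.99, 36.5 and 15.3 CPM in surrounding cells (-4.84 ± 0.71, adjusted p = 4.3e-05). Kdr, the receptor VEGFR2, was -3.14 ± 0.44, adjusted p = 2.5e-05 and Cldn5, a tight junction protein, -5.64 ± 0.93, adjusted p = 1.1e-04. Abcg2, an efflux transporter also found in stem cells, was the higher member (0.73 ± 0.21, adjusted p = 0.010, and adjusted p = 0.051 without 3054C). Flt1, the receptor VEGFR1, did not follow the list. It stood at 10.6, 116, 65.8 and 1.41 CPM in glioma and 67.9, 111, 63.1 and 19.9 CPM in surrounding cells (-0.43 ± 0.81, adjusted p = 0.72), so in 3054B and 3054C the glioma cells held as much as their surroundings.

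Pericyte and smooth muscle genes were lower in 8 of the 15 tested and higher in 2, and 9 and 2 without 3057E. Vtn, vitronectin of pericytes, was 409-fold lower (95% interval 72.97 to 16206) on pooled counts, and Acta2, smooth muscle actin, stood at 1.52, 2.24, 2.58 and 0.662 CPM in glioma and 26.02, 138, 35.2 and 3.94 CPM in surrounding cells (-4.85 ± 1.03, adjusted p = 0.0011). The higher members, Cspg4 and Mcam, are shared with OPC and tumour cells. Cspg4, the proteoglycan NG2, was 1.42 ± 0.46, adjusted p = 0.021, and adjusted p = 0.15 and 0.057 without 3054B and 3054C. Without 3054B 5 members were called lower, or 7 with 3057E left out as well. Fibroblast and meningeal genes were lower in 12 of the 13 tested, with Pdgfra as the exception. Dcn, decorin, stood at 1.27, 0.537, 0.606 and 0.331 CPM in glioma and 62.1, 184, 53.4 and 149.8 CPM in surrounding cells (-7.34 ± 1.15, adjusted p = 7.5e-05), and Col1a1, the main fibrillar collagen, at 3.72, 1.52, 1.06 and 0.248 CPM and 165, 639.7, 134 and 82.5 CPM (-7.28 ± 1.54, adjusted p = 0.0010).

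Matrix genes were lower in 16 of 30 cases and higher in 3, with the same counts without 3057E. Nid1 and Lamb1, of the basement membrane, were -6.42 ± 0.85, adjusted p = 1.7e-05 and -5.70 ± 0.75, adjusted p = 1.6e-05. The higher members were all collagens. Col11a1, a minor fibrillar collagen of cartilage and many tumours, stood at 1376, 2043, 1472 and 169 CPM in glioma and 92.8, 251, 49.8 and 115 CPM in surrounding cells. The glioma cells of 3054A, 3054B and 3054C held far more than their surroundings, those of 3057E 169 against 115 CPM, and the difference was 3.31 ± 0.70, adjusted p = 0.0010. Col20a1 was 2.74 ± 0.72, adjusted p = 0.0052 and was highest in the glioma library of 3054B, at 354 CPM. Col9a1 was 2.51 ± 0.82, adjusted p = 0.021, and adjusted p = 0.089, 0.076 and 0.089 without 3054A, 3054B and 3054C.

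Immediate early and heat shock genes, which dissociation of tissue can induce, were lower in 19 of 22 cases and higher in 1. Btg2, an early response gene, stood at 3.55, 14.8, 6.37 and 28.4 CPM in glioma and 174, 375, 238 and 135 CPM in surrounding cells (-4.12 ± 0.53, adjusted p = 1.3e-05), and Dusp1 was -4.62 ± 0.66, adjusted p = 3.3e-05. Fos was -1.36 ± 0.41, adjusted p = 0.013, and adjusted p = 0.079 without 3054C. Egr1 was not called (0.30 ± 0.40, adjusted p = 0.60), and Egr3 was the higher one (1.25 ± 0.38, adjusted p = 0.014, and adjusted p = 0.061 without 3054C). Haemoglobin genes and Alas2, of red blood cells, were lower in all 5 cases called of 6 tested, and Hbb-bs stood at 1.44, 13.2, 41.2 and 0.414 CPM and 175, 1334, 490.4 and 65.3 CPM (-5.19 ± 1.47, adjusted p = 0.0090, and adjusted p = 0.075 without 3054B). Without 3054B 3 were called. The part of blood cells and of the response to dissociation in the other results was not tested.

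Of 21 hypoxia genes 2 were higher and 3 lower with all tumours, against 15.4% and 19.9% of all genes, and 4 were higher and 5 lower without 3057E, against 19.5% and 23.3%. Vegfa, the vessel growth factor, was not called (0.26 ± 0.63, adjusted p = 0.78). Ndrg1, a gene of hypoxia that mature oligodendrocytes also express, was -3.98 ± 0.83, adjusted p = 9.0e-04, with a glioma level of 7.18, 13.4, 12.3 and 0 CPM. Of 18 glycolysis genes 1 was higher and 2 lower, and 2 and 5 without 3057E, against the same shares of all genes. Among the lower ones was Hk2, hexokinase 2, at 27.5, 24.6, 33.7 and 10.2 CPM in glioma and 158, 181, 182 and 30.3 CPM in surrounding cells (-2.52 ± 0.55, adjusted p = 0.0014). Of 30 ribosomal protein genes 0 were higher and 1 lower, and of 27 nuclear genes of oxidative phosphorylation 2 were higher and 0 lower, with the same counts without 3057E. The ribosomal protein genes went opposite ways by tumour. In the pair of 3054A 29 of them were higher and 1 lower (median 0.39). In the pairs of 3054B, 3054C and 3057E 2, 1 and 2 were higher and 28, 29 and 28 lower (medians -0.45, -0.47 and -0.62). The median of the oxidative phosphorylation list was 0.40, and 9 members were higher with the tumour as a block (22.8% of all genes), 15 with limma voom (24% of all genes, 47.7% in either direction), and 0 without 3054A or without 3054B. Without 3057E as well as 3054A or 3054B the count was 1. Scaling with DESeq2's size factors moved the median of all genes from 0.04 to -0.06, and the medians of the PDGF and glycolysis lists, both 0.01, to -0.10.

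Some genes were called only after 3057E was left out. Igf1, a growth factor of activated microglia, stood at 1.01, 0.626, 1.89 and 38.6 CPM in glioma and 86.2, 17.6, 60.1 and 7.20 CPM in surrounding cells (-2.02 ± 1.08, adjusted p = 0.15, and -5.59 ± 1.03, adjusted p = 1.9e-04, without 3057E). Apoc1, an apolipoprotein of macrophages, was -2.05 ± 1.1, adjusted p = 0.16 with and -7.74 ± 1.11 (adjusted p = 1.1e-05) without it. In the other direction, Lypd6, which modulates acetylcholine receptors, stood at 16.1, 51.8, 27.7 and 32.9 CPM and 1.32, 7.35, 1.03 and 29.9 CPM, and was 3.23 ± 0.73 (adjusted p = 0.0013) without 3057E. These genes were selected for the change that leaving out 3057E made, and the values describe that change.

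The difference between glioma and surrounding cells was set against that of the early symptomatic and the asymptomatic stages, with 4 tumours each. The tests share the late libraries. With all tumours no gene was called in either test (0% of 18810 genes each). At an unadjusted p under 0.05 there were 1167 genes against the early and 1585 against the asymptomatic stage, DESeq2 called 39 and 18, and limma voom with sample weights 1113 and 1286. Without 3057E edgeR called 869 genes against the early stage (4.51% of 19254), 380 higher (1.97%) and 489 lower (2.54%), and 1435 against the asymptomatic stage (7.45%), 622 higher (3.23%) and 813 lower (4.22%). The 3 late tumours that then remain share the first digits of their codes, so code and stage cannot be told apart. Of the early tumours, 3108D and 3109D had Y-linked expression in 1 population only (summed 0.696 and 152 CPM in glioma, 141 and 0.176 CPM in surrounding cells). Without 3057E and both of these tumours 15 genes were called against the early stage (0.0757% of 19812), 5 higher and 10 lower, all of them among the 869. The other calls against the early stage were lost in this fit, which has fewer tumours.

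In the fit without 3057E, 8 of 19 homeostatic microglia genes, 1 of 21 activated microglia genes, 10 of 20 MHC class I genes and 5 of 11 MHC class II genes were lower relative to the early stage and 0 were higher. Relative to the asymptomatic stage 16, 15, 7 and 5 were lower and 0 higher. Over all genes 1.97% were higher and 2.54% lower relative to the early stage, and 3.23% and 4.22% relative to the asymptomatic stage. Without 3108D and 3109D as well, no gene of these lists was called against the early stage, and each value against the early stage below lost its call. The difference of Cx3cr1 changed by -2.37 ± 0.62, adjusted p = 0.033, against the early stage and by -3.88 ± 0.62, adjusted p = 0.0011, against the asymptomatic stage, with 3.56 to 18.9 CPM in early glioma libraries and 543 to 939 CPM in early surrounding libraries. Of the factors of progenitors 7 of 26 were higher and 0 lower against the early and 6 and 0 against the asymptomatic stage, and none was called without 3108D and 3109D against the early stage. For Sox2 the difference from the early stage was 1.84 ± 0.34, adjusted p = 0.0071, and for Sox4 1.99 ± 0.33, adjusted p = 0.0042. Oas3 gave one of the largest, -6.41 ± 1.33, adjusted p = 0.013, and had 0.0789 to 0.526 CPM in early glioma libraries and 1.32 to 2.51 CPM in early surrounding libraries. Flt1 was 3.61 ± 0.99, adjusted p = 0.041, with 0.987 to 3.03 CPM in early glioma libraries and 23.6 to 44.7 CPM in early surrounding libraries. Itih5, a protein that binds hyaluronan, stood at 48.7, 206, 54.8 and 0.579 CPM in late glioma and 45.3, 149, 26.3 and 98.6 CPM in late surrounding cells, with 2.63 to 5.60 CPM in early glioma libraries and 30.4 to 147 CPM in early surrounding libraries (4.73 ± 0.85, adjusted p = 0.0062). Without 3057E, 3108D and 3109D the values were -1.74 ± 0.70 (adjusted p = 0.34) for Cx3cr1, 1.58 ± 0.41 (adjusted p = 0.15) for Sox2, 1.86 ± 0.35 (adjusted p = 0.054) for Sox4, -6.97 ± 1.57 (adjusted p = 0.100) for Oas3, 4.11 ± 1.33 (adjusted p = 0.24) for Flt1 and 5.60 ± 1.04 (adjusted p = 0.054) for Itih5.

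Levels along the chromosomes were set against the mean of the other 3 libraries of the same population. In the glioma library of 3054B the median gene of chromosome 1 was higher by 0.42 (log2, 556 genes), and all 10 stretches of 20 megabases were between 0.32 and 0.47. Chromosome 1 of the glioma library of 3054A was lower by 0.26, against a mean that includes 3054B, and the medians of all other chromosomes and glioma libraries lay between -0.16 and 0.10. In the surrounding library of 3054B the median gene of chromosome 1 was higher by 0.17, and its stretches lay between 0.11 and 0.31. The medians of the other chromosomes in the late surrounding libraries ran from -0.20 to 0.28, a range that holds the 0.17. No DNA was measured. Y-linked genes differed within 1 pair: Ddx3y, an RNA helicase of the Y chromosome, stood at 0.0845, 0.0894, 2.96 and 63.4 CPM in glioma and 0, 0.113, 93.2 and 82.4 CPM in surrounding cells. Summed over 4 Y-linked genes, the glioma library of 3054C held 3.51% of its surrounding library's level and that of 3057E 77.8%. Xist, of the inactive X chromosome, stood at 988, 480.2, 1.06 and 7.70 CPM and 1501, 773, 1.98 and 0 CPM, so it was low in both libraries of 3054C. In 3057E the glioma library held 93 counts of Xist and the surrounding library 0, and the cause was not tested.

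**Figure D4:**
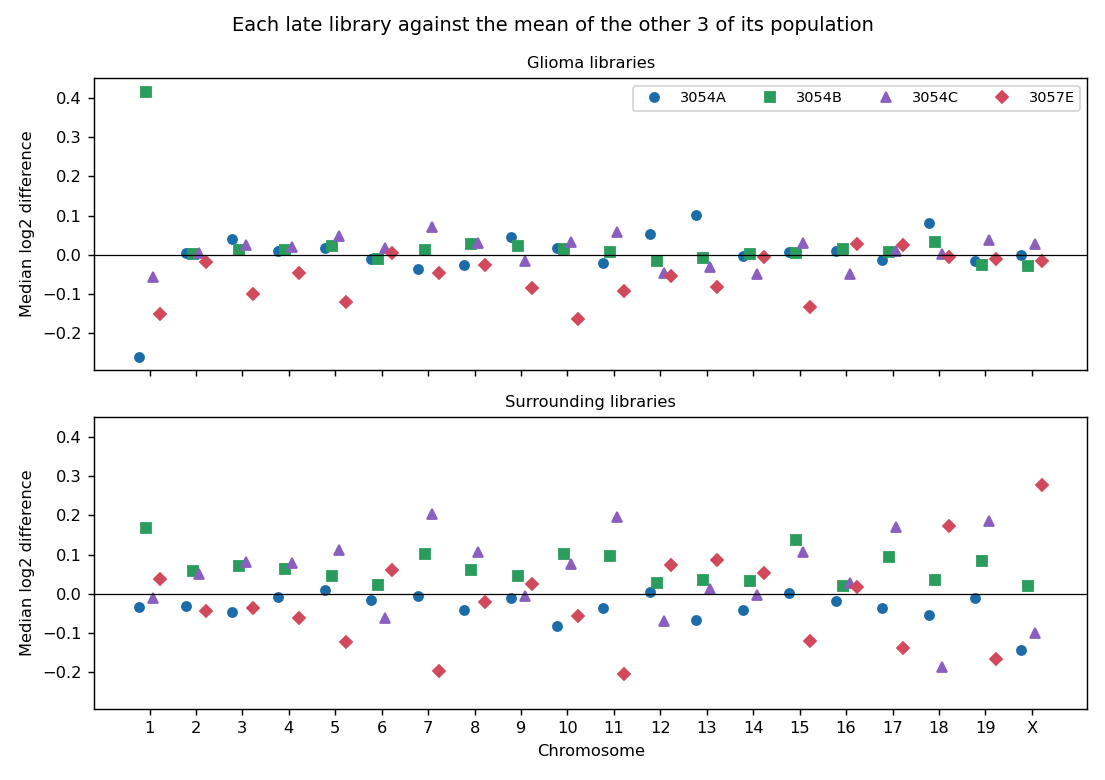
Median log2 difference of each chromosome's genes between a late library and the mean of the other 3 late libraries of its population, with 1 point per library and chromosome and a panel per population. The glioma library of 3054B stands at 0.42 on chromosome 1, and the other glioma values outside chromosome 1 lie between -0.16 and 0.10.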

How the data were processed

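RNA of sorted cells from 12 tumours was sequenced as 24 libraries. Per the labels, libraries were built from polyA RNA with the CORALL kit. The authors deposited expected counts, whose tools the submitters' processing notes name as STAR 2.7.5c and RSEM 1.3.1, with the build GRCm38. Annotation release, strand setting and use of molecular identifiers are not given in the sources used here, so overlapping, antisense and near-identical genes are uncertain.

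Expected counts were rounded and fitted with edgeR 4.0.16 in R 4.3.3 over all 24 libraries, with 6 group means, TMM scaling, filterByExpr with min.count set to 10, and robust quasi-likelihood tests on 18 residual degrees of freedom. Benjamini-Hochberg adjustment ran over every gene tested, and standard errors derive from the F statistic. The 4 tumours of a group are separate brains, per the labels. No 2 late libraries of a population were copies (lowest chi-square per degree of freedom 36.2). The fit was repeated without both libraries of 3057E (22 libraries). The alternatives were DESeq2 1.42.0, limma 3.58.1 voom with sample weights, other scaling, filters and fold limits, late libraries alone, the tumour as a block, and each tumour left out. Fits without 3108D and 3109D, without these and 3057E, and without the glioma library of 3057E alone, were chosen after seeing the data. The labels pair the libraries by code, as from the same brain. Deviations within the late pairs correlated at 0.078, 0.24, 0.32 and 0.12. The glioma library of 3057E correlated more with the surrounding library of another late tumour than with its own. Y-linked expression differed within the pairs of 3054C, 3108D and 3109D, as given above, and the cause was not tested.

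On data simulated for the late comparison with 18763 genes, 92 of 100 genes changed by 2 on the log2 scale were recovered, 12 of 100 changed by 1, with 3 false calls. Only these genes were changed, all above a minimum level, and no pair was set apart as 3057E was. In the data 35.3% of genes were called, so these rates do not describe the late comparison itself. The comparison, the 36 gene lists (697 genes) and most members named were chosen with earlier results of these data known, and no list was tested. Named genes are up to 12 per direction with the largest fold among calls without overlap and with a mean log2 CPM above 3 or equal to it, up to 4 members of each list per direction with the smallest p, up to 6 per direction for each interaction and for calls gained without 3057E, a few fixed genes, and further members that account for a list's count. Some genes that these rules name are not reported here. As no gene was called in the interactions with all tumours, their genes come from the fit without 3057E. Coordinates of promoters are those of RefSeq for GRCm38.p6, and chromosomes of genes come from GENCODE M21, which held 98.6% of the identifiers. Fold intervals on pooled counts are exact at 95%, cover counting error only, and set a count of 0 to a floor of 3 counts over the group.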

Additional observations from a re-analysis of the deposited data

Results flagged for a closer look

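In 98 groups of 4 libraries, the highest or lowest value was set apart from the others by more than Dixon's critical share of the group's range in 10 cases. Chance gives about 1 in 20 groups that are independent. These groups are not, as they share libraries and in part genes, so the number of cases was not tested against that rate. Of the 10 cases, 9 were libraries of 3057E. As mean log2(CPM + 1) over a list, its glioma library stood at 5.47 for glutamate and GABA receptor subunits (others 4.30 to 4.33), 6.58 for homeostatic microglia (1.86 to 2.46), 3.38 for MHC class II presentation (0.84 to 1.25), 4.38 for complement (1.48 to 1.87) and 2.57 for chemokines and receptors (0.85 to 1.10). Its surrounding library stood at 6.47 for homeostatic microglia (9.07 to 9.52). As log2(CPM + 1) of single genes, its glioma library stood at 6.14 for Ptprc (0.51 to 1.42) and 8.11 for Cx3cr1 (2.01 to 2.94), and its surrounding library at 8.12 for Cx3cr1 (10.37 to 10.77). The remaining case was Pdgfra in the glioma library of 3054C, at 11.39 against 11.64 to 11.68, a small gap in a narrow range.

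The difference between populations differed from that of the early stage in 869 genes and from that of the asymptomatic stage in 1435 genes, both without 3057E, by the test of the interaction in edgeR. Without 3057E and the early tumours 3108D and 3109D the first count was 15.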

How the results depend on the processing

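The comparison of late glioma and surrounding cells, 6638 genes called with all tumours, gave 5392 to 8971 under DESeq2, limma voom, other scaling, other count filters, no robust spread, the tumour as replicate block and the glioma library of 3057E left out. The higher genes among them rose from 2899 to 4506 with limma voom. The late libraries alone gave 2968, the same with the tumour as replicate block 1015, and a test against a fold of 1.5 gave 3865. Without 3057E the late libraries alone gave 6584, and 7380 with the block. Leaving out 1 tumour gave 4221 to 8232. Without 3057E the range over its alternatives was 5809 to 9693, and leaving out 1 more tumour gave 6298 to 7002. In the fit of all libraries the replicate block called 8406 genes, and for the genes named in the text it ended the call of Mki67 alone. Calls ended for 30 of the genes named with the late libraries alone and for 67 when these had the replicate block too. Against the early and asymptomatic stages, 0 genes became 39 and 18 with DESeq2 and 1113 and 1286 with limma voom. Leaving out 1 tumour gave 0 to 869 and 0 to 1435, with the upper value without 3057E each time, and 15 against the early stage without 3057E, 3108D and 3109D. Some genes named but not called changed sign. Leaving out 1 tumour gave -0.71 to 0.41 for Itih5 (0.31 without the glioma library of 3057E), -0.47 to 0.45 for Pdgfb (0.13 with the replicate block, 0.025 with it in the late libraries alone), -0.44 to 0.075 for Rbfox3 and -1.08 to 0.17 for Slc17a7. Ddx3y became 0.29 with limma voom, and Xist 0.21 with the replicate block and 0.11 with it in the late libraries alone. The cause was not tested. Depth limits genes of a few counts, such as the lymphocyte and choroid plexus genes: with a minimum count of 50 only 1 T and NK cell gene was called, since fewer were tested.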
